A study of Homo sapiens with 15 samples.

Results

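The genes described are the ZNF genes of human chromosome 19, the largest group of zinc finger genes in the genome. They were taken by name and place: protein-coding genes on chromosome 19 in GENCODE v29 (GRCh38) whose symbol is ZNF followed by digits and at most one letter. Of 246 such genes, 206 had a row in the deposited expression table, out of 16604 genes in that table, and 40 had none. No measured value entered the choice. In all, 59 of the 206 lie on the short (p) arm and 147 on the long (q) arm.

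RNA was measured in 15 samples of 5 human cell lines, with 3 biological replicates of each. OVCAR4 is an established cell line of high-grade serous ovarian cancer, and its sensitive parent is labelled Ovcar4Parental. Ov4Cis (cisplatin resistant) and Ov4Carbo (carboplatin resistant) are populations grown out of it under rising doses of platinum drugs, which crosslink DNA. Ov4Carbo4 and Ov4Carbo7, both carboplatin resistant, were each grown from 1 cell of Ov4Carbo, so each stands for 1 clone. All were cultured in DMEM with serum and antibiotics, and all derived lines descend from the parental line. Changes of the genome during selection or cloning were not measured here. Values are log2 RPKM (reads scaled to gene length and library size), normalized by the authors for gene length and GC content, so that 0 is 1 RPKM.

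Most ZNF proteins of chromosome 19 carry a row of C2H2 zinc fingers that reads DNA and a KRAB domain. The KRAB domain recruits TRIM28, which brings the histone methyltransferase SETDB1 and heterochromatin proteins to the bound site. Many of these repressors silence retroelements, and the genes themselves stand in clusters of close relatives that arose by local duplication. In tumours several of them are known as targets of promoter methylation.

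Promoter sequences are shown for members whose levels were very low in 1 or both clones and for neighbours that were not, because the clustered genes share promoter letters as well as coding sequence. They come from RefSeq (GRCh38.p14), which held a window of 300 bases, 250 before to 50 after the start, for 184 of the 206 members. Each line below gives the 250 bases before the start, 5′ to 3′ on the strand of the gene. In the first set, all from the short arm near the centromere, capitals mark 2 strings of 14 bases. The first is the string found in the largest number of members' windows (14 of 184). The second is the next most frequent that shares no 8 bases with it. ZNF85 (chr19:20923001-20923250, plus strand), ZNF100 (chr19:21767580-21767829, minus strand) and ZNF43 (chr19:21836183-21836432, minus strand) fell in Ov4Carbo4. ZNF431 (chr19:21141790-21142039, plus strand) and ZNF675 (chr19:23687213-23687462, minus strand) were not called in any comparison.
ZNF85: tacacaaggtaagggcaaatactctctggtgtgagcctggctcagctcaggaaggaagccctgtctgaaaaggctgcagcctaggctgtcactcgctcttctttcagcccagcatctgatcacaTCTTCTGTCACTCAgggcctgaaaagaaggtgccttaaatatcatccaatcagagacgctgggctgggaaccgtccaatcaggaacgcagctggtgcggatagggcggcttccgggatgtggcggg
ZNF100: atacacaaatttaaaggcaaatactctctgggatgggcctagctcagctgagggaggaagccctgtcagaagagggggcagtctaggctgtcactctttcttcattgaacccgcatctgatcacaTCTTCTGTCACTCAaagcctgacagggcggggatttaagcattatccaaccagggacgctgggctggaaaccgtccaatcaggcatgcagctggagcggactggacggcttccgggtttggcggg
ZNF43: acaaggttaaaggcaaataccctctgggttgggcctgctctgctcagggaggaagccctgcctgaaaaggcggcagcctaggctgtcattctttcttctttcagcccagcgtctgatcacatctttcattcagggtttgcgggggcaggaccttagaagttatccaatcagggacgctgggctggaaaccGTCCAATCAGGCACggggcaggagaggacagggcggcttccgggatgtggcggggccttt
ZNF431: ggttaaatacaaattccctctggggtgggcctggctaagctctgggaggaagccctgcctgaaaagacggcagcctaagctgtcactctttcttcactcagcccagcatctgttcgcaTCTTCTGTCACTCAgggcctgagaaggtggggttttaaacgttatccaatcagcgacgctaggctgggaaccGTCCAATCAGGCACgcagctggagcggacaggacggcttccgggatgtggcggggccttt
ZNF675: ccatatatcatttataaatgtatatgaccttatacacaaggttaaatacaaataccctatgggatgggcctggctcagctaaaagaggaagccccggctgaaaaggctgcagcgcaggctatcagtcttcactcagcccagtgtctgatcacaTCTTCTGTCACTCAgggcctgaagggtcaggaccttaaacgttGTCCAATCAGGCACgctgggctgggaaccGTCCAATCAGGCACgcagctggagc

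The string TCTTCTGTCACTCA occurred in 14 of the 184 members' windows (7.61%), all on the short arm, and in 19 of all 27305 RefSeq windows (0.0696%) on either strand. Of those 14 members, 10 were called lower in Ov4Carbo4 than in Ov4Carbo and 4 were not called. Of all members 18.9% were called lower there, and of all genes 6.64%. Most of the 14 lie in 2 near-centromere clusters. In these, 9 of 17 members (ZNF101 to ZNF43) and 3 of 6 (ZNF724 to ZNF254) were called lower. A link between the strings and the falls was not tested. The string GTCCAATCAGGCAC, which holds the letters CCAAT, occurred in 11 members (5.98%), again all on the short arm, and in 18 of all windows (0.0659%). Of these, 5 were called lower in Ov4Carbo4 than in Ov4Carbo and 6 were not. Genes with the same strings therefore stood on both sides: ZNF431 and ZNF675 hold both.

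A second set shows 3 members from other places on the chromosome that were at the bottom of the scale in at least 1 clone, with each CG pair in capitals. ZNF844 (chr19:12064481-12064730, plus strand) was off in both clones, ZNF793 (chr19:37506689-37506938, plus strand) in Ov4Carbo4 and ZNF850 (chr19:36772808-36773057, minus strand) in Ov4Carbo7.
ZNF844: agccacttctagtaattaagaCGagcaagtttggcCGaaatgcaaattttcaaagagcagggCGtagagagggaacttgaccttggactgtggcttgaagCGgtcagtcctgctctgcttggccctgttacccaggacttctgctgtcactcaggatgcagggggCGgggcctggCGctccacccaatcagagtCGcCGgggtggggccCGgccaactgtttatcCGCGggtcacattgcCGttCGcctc
ZNF793: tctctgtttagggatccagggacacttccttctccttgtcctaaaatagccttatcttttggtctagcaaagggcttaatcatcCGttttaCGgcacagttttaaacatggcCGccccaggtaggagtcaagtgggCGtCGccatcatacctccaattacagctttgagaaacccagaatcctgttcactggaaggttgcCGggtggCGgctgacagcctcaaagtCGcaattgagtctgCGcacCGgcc
ZNF850: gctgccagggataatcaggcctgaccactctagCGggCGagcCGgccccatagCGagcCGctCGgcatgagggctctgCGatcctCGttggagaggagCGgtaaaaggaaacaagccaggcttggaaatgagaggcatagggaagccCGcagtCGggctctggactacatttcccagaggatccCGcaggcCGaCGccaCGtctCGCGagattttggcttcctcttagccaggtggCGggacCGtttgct

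CG pairs were frequent in the members' windows, with a median of 21 in 300 bases, against 14 over all RefSeq windows. The 13 matched members that were off in Ov4Carbo4 had a median of 12.0 (8 to 22), and the 135 that were on had 22.0 (6 to 40). Within the near-centromere clusters ZNF101 to ZNF43 and ZNF724 to ZNF254, the 10 members lower in Ov4Carbo4 than in Ov4Carbo had a median of 10.0 and the 10 not called had 11.5. For Ov4Carbo7 the 11 members that were off had a median of 19 and the 137 that were on had 22. Short motifs searched on both strands were GGGCGG (66.8% of the members' windows and 44.6% of all), CCGGAAG (47.3% and 10.7%), TGACGTCA (3.8% and 1.98%) and CCAAT (51.1% and 35.7%).

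A member was counted as on in a line when all 3 replicates were at log2 RPKM 0 or above, as off when all 3 were at -3 or below, and otherwise as between. In the parental line 160 members were on, 46 between and 0 off. Ov4Cis had 165 on and 1 off (ZNF439), and Ov4Carbo 160 on and 1 off (ZNF93). The clones differed from this: 16 members were off in Ov4Carbo4, with 149 on, and 12 were off in Ov4Carbo7, with 151 on. These counts are a description with no test, and they cover only genes with a row. Sample titles of both clones and of Ov4Carbo replicate 1 carry the same number series, and those of the remaining samples another. A low value in Ov4Carbo replicate 1 alone does not make a member off in Ov4Carbo. The off states of the clones were not separated from this series. Of all 16604 genes in the table, 0 were off in all 5 lines. The state of the 40 ZNF genes of chromosome 19 without a row is unknown. In bulk RNA, fewer cells with a transcript and less of it per cell cannot be told apart.

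The share of members off in Ov4Carbo4 was 7.77%, against 2.62% of 229 ZNF genes of other chromosomes, 0.78% of 769 other protein-coding genes of chromosome 19 and 2.49% of all genes in the table. In Ov4Carbo7 it was 5.83% of the members, against 4.37%, 2.73% and 2.28%. Of the 16 and 12, 6 were off in both clones: ZNF433, ZNF844, ZNF93, ZNF790, ZNF415 and ZNF665. Off in Ov4Carbo4 and in no other line were 9: ZNF69, ZNF506, ZNF253, ZNF737, ZNF85, ZNF429, ZNF43, ZNF492 and ZNF793. Off in Ov4Carbo7 and in no other line were 6: ZNF426, ZNF850, ZNF345, ZNF585B, ZNF404 and ZNF582.

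**Figure D1:**
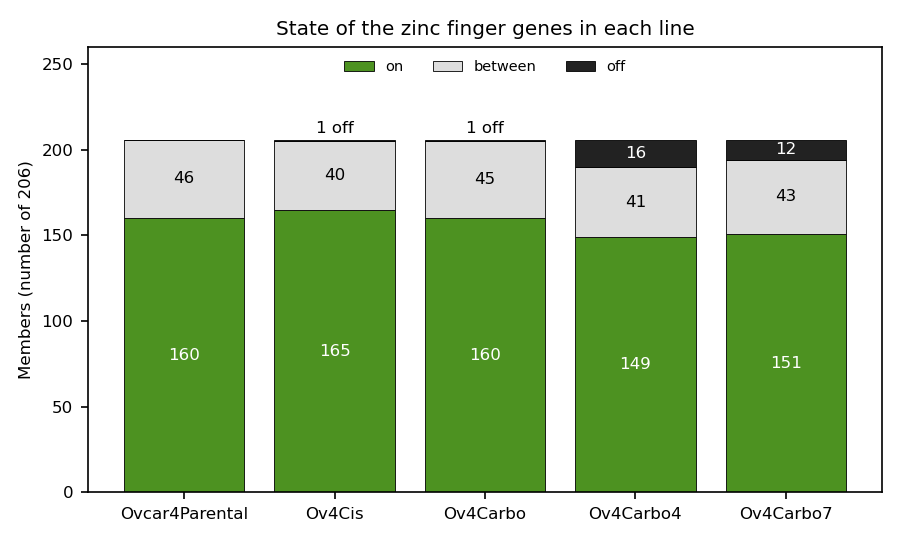
Number of the 206 chromosome 19 zinc finger genes that were on (all 3 replicates at log2 RPKM 0 or above), off (all 3 at -3 or below) or between, in each of the 5 lines. The off part is 0, 1 and 1 in Ovcar4Parental, Ov4Cis and Ov4Carbo, and 16 and 12 in Ov4Carbo4 and Ov4Carbo7. Sample titles of both clones carry the same number series, which those of Ovcar4Parental and Ov4Cis do not.

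Over the 5 lines, 135 members (65.5%) were on throughout, against 72.7% of all genes. A further 49 were between in at least 1 line and never off, and 22 (10.7%, against 6.21% of all genes) were off in at least 1 line. Of these 22, 7 were on in 1 line and off in another (3.4% of members, where 1.93% of all genes did so): ZNF43, ZNF844, ZNF85, ZNF506, ZNF793, ZNF426 and ZNF253. With limits of 1 and -2, or of 0 and -4, the count was 4. The highest line mean of a member exceeded its lowest by a median of 0.89, from 0.12 for ZNF254 to 7.71 for ZNF43. By the moderated F-test of limma, 169 members (82%) differed among the 5 lines, beside 76.9% of all genes.

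Comparisons between lines used limma on all 16604 genes, and Benjamini-Hochberg adjustment of the p-values across that whole table. Calls required a log2 change of 1 or more and an adjusted p below 0.05. Against the parental line, 8 members were called higher and 30 lower in Ov4Carbo4, where 7.43% and 7.7% of all genes were. In Ov4Carbo7 the members called were 9 higher and 22 lower, where 9.26% and 7.75% of all genes were. The members' shares were 3.88% higher and 14.6% lower in Ov4Carbo4, and 4.37% and 10.7% in Ov4Carbo7. These splits depended on 1 choice. Sample titles carry numbers in 2 series: Ov4Carbo replicate 1 and both clones have one, the remaining samples the other. A term for the series can be estimated only from Ov4Carbo, by its replicate 1 against its others, and its replicates were the least alike. With that term, the members called were 22 higher and 22 lower in Ov4Carbo4, and 17 and 15 in Ov4Carbo7. The lean of the members towards lower calls against the parental line was then not seen. Shares of all genes called with the term are not given here.

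The clones were also compared with their source population. In Ov4Carbo4, 6 members (2.91%) were called higher than in Ov4Carbo and 39 (18.9%) lower, where 7.58% and 6.64% of all genes were. For Ov4Carbo7 against Ov4Carbo these were 5 (2.43%) and 29 (14.1%), where 7.72% and 5.62% of all genes were. With the series term these counts were 10 higher and 29 lower, and 7 and 16. Comparisons with the same control share its 3 samples and are not independent of each other. The median change over all 206 members stayed near 0, from -0.15 in Ov4Carbo7 against Ov4Carbo to 0.07 in Ov4Carbo4 against the parental line, and over all genes from -0.00 to 0.07 in these 4 comparisons. The falls therefore sat in a minority of members. Their median was -3.27 in Ov4Carbo4 and -2.13 in Ov4Carbo7 against the parental line, and -2.46 and -1.44 against Ov4Carbo.

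**Figure D2:**
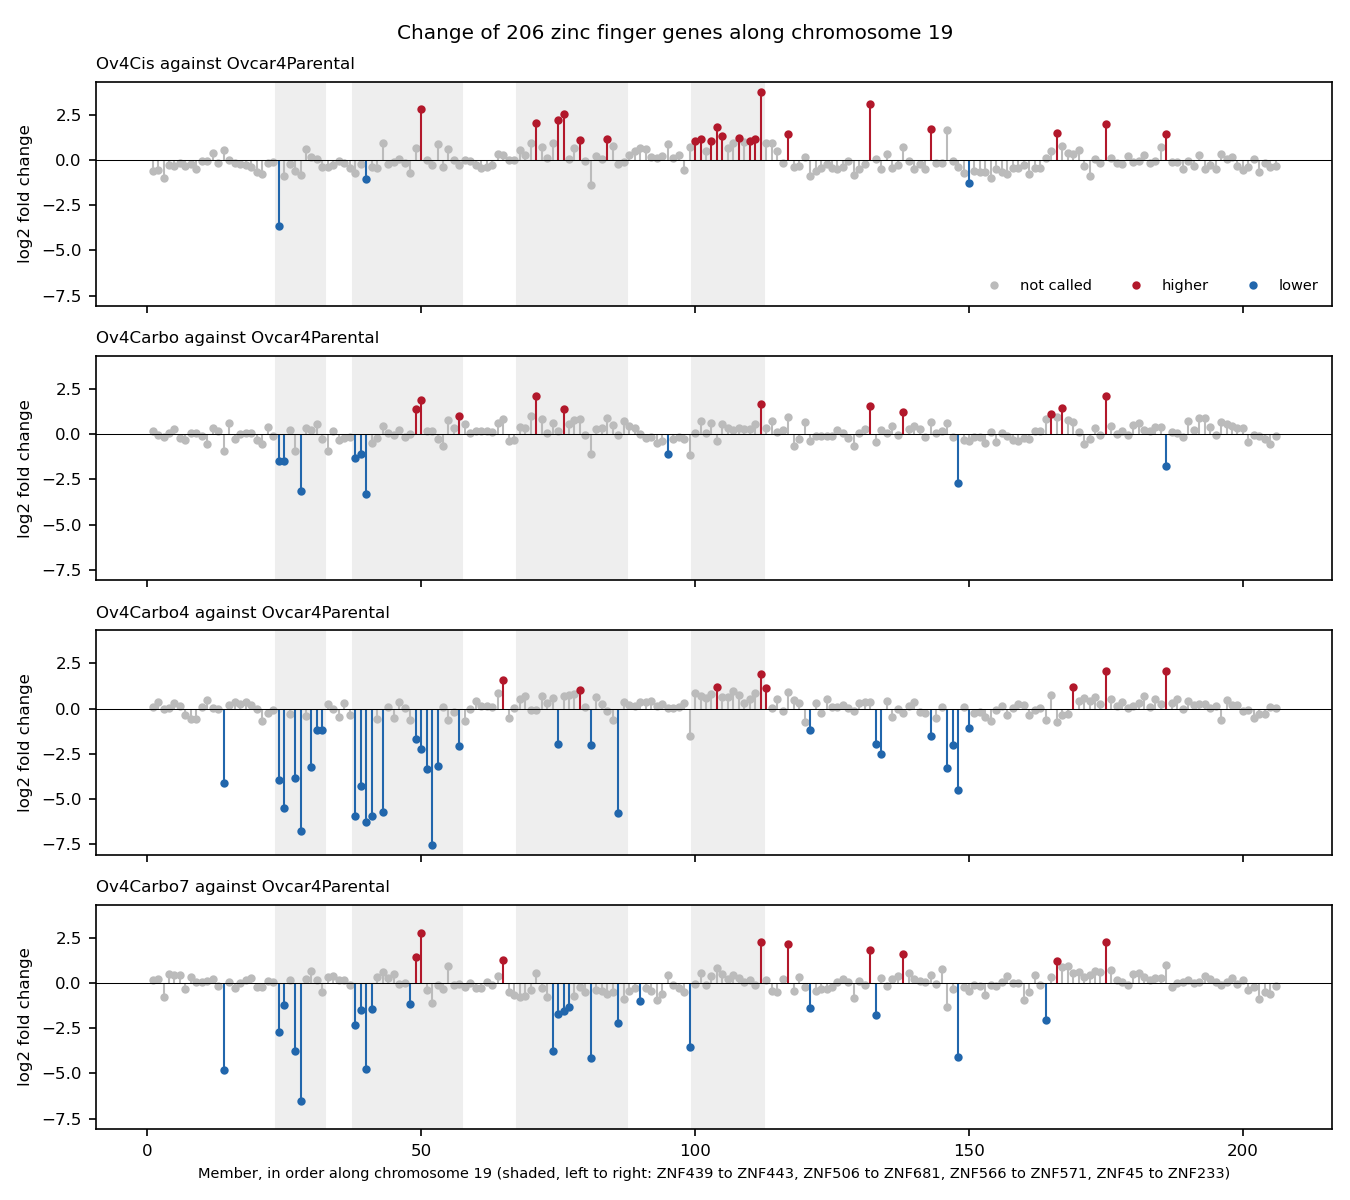
Log2 fold change (limma) of each of the 206 members against Ovcar4Parental, in order along chromosome 19 from the short to the long arm, with a panel for each derived line. Red points were called higher, blue points lower and grey points not called, and shading marks ZNF439 to ZNF443, ZNF506 to ZNF681, ZNF566 to ZNF571 and ZNF45 to ZNF233. The deepest falls are in the Ov4Carbo4 panel: ZNF43 at -7.51 in the second shaded block and ZNF844 at -6.79 in the first.

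Members were put into clusters wherever at most 3 other protein-coding genes lay between one and the next, which gave 32 clusters and single genes, 19 of them of 2 or more. Only the order of genes was taken from GRCh38, since the submitters' processing notes name hg19. The calls were unequal along the chromosome. On the short arm stood 19 of the 30 members lower in Ov4Carbo4 than in the parental line, although 59 of the 206 members lie there. Ov4Carbo7 had 10 of its 22 falls there.

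In Ov4Carbo4 many of the falls were in the cluster ZNF101 to ZNF43, near the centromere on the short arm. Of its 17 members, 9 were called lower than in the parental line and 9 lower than in Ov4Carbo, and 7 were off. On the scale of log2(RPKM + 1) the counts were 4 and 2. ZNF43 changed most of all members. It read log2 RPKM 1.45, 0.78 and 1.11 in the parental samples, 0.52, 1.14 and 0.88 in Ov4Cis, and 1.25, 1.62 and 1.07 in Ov4Carbo. In Ov4Carbo4 it read -6.78, -7.30 and -5.11, and in Ov4Carbo7 0.07, 0.21 and -0.21. The 3 Ov4Carbo4 samples lay below the other 12 with a wide gap, near the lowest values that any gene had in a sample (-8.18 to -7.68).

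The fall of ZNF43 in Ov4Carbo4 was -7.51 against the parental line (SE 0.43, adjusted p = 1.11e-07, limma) and -7.71 against Ov4Carbo (SE 0.43, adjusted p = 1.63e-07, limma). At such low values the size of a log2 change depends on how the authors treated genes with few reads. On the scale of log2(RPKM + 1), which gives such values little weight, the falls were -1.64 and -1.78. ZNF85 behaved alike from a lower start. It read -0.28, -0.81 and -0.56 in the parental samples, 0.02, 0.66 and 0.42 in Ov4Cis, 0.14, 0.01 and -0.42 in Ov4Carbo, and -0.07, 0.22 and 0.06 in Ov4Carbo7. In Ov4Carbo4 it read -5.63, -6.69 and -6.45, again below all other samples, and its change against Ov4Carbo was -6.16 (SE 0.26, adjusted p = 2.14e-08, limma), or -0.94 as log2(RPKM + 1).

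ZNF100 was lowered without reaching the off limit. Its Ov4Carbo4 samples read -2.39, -2.48 and -2.13, against 1.25, 1.58 and 0.77 in Ov4Carbo and 1.04, 0.93 and 1.04 in the parental line. That was a fall of 3.53 against Ov4Carbo on the log2 scale (-3.53, SE 0.17, adjusted p = 3.76e-08, limma), or -1.47 as log2(RPKM + 1). In Ov4Carbo7 ZNF100 was on, at 0.59, 0.71 and 0.59.

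Neighbours at the other end of the cluster, ZNF506, ZNF253, ZNF93 and ZNF737, fell together. ZNF506 read 1.27, 0.73 and 0.37 in the parental samples, -0.76, -0.60 and -0.14 in Ov4Carbo, -1.03, -1.90 and -1.60 in Ov4Carbo7 and -4.52, -5.27 and -5.71 in Ov4Carbo4. ZNF253 had line means of 0.44 ± 0.16, -0.67 ± 0.17, -1.05 ± 0.28 and -3.86 ± 0.53 in the same order (SD, n = 3). Both were thus lower in all carboplatin lines than in the parent, and lowest in Ov4Carbo4. Against the parental line the changes in Ov4Carbo, Ov4Carbo7 and Ov4Carbo4 were -1.29, -2.30 and -5.96 for ZNF506 (SE 0.32 each, adjusted p = 0.00818, 9.79e-05 and 7.15e-08, limma). For ZNF737 the parental mean was -0.33 ± 0.22 and the Ov4Carbo4 mean -6.28 ± 0.45 (SD, n = 3).

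Further along lie ZNF493, ZNF429, ZNF100, ZNF43 and ZNF492, a run of 5 neighbours all called lower in Ov4Carbo4 and all higher in Ov4Carbo7 than in Ov4Carbo4. The call of ZNF493 against the parental line ended with the series term (-1.03). In ZNF429 the lines took opposite directions from the parent. It read -2.60, -3.19 and -2.62 in the parental samples, 0.06, -0.03 and 0.05 in Ov4Cis, -1.0, -1.16 and -0.52 in Ov4Carbo, -5.31, -4.92 and -4.80 in Ov4Carbo4, and 0.08, -0.16 and 0.01 in Ov4Carbo7. The 5 groups of 3 overlapped only between Ov4Cis and Ov4Carbo7. Against the parental line ZNF429 was higher by 2.83 in Ov4Cis and by 2.77 in Ov4Carbo7, and it fell by 2.21 in Ov4Carbo4 (-2.21, SE 0.20, adjusted p = 3.44e-06, limma).

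Not every gene of this stretch moved. ZNF101, ZNF14, ZNF430, ZNF431, ZNF708 and ZNF66 were not called in any comparison, although ZNF66, ZNF430, ZNF431 and ZNF708 stand between ZNF737 and ZNF493. ZNF431 read 1.92, 1.82 and 2.09 in Ov4Carbo4 and 1.57, 1.59 and 1.63 in the parental line. Past the cluster, ZNF254 was the most even member of all, with line means from 2.47 to 2.60. ZNF675, known as TIZ for its binding of the signalling adaptor TRAF6, had line means from 1.29 to 1.82 and was not called either. On and off genes were thus interleaved.

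**Figure D3:**
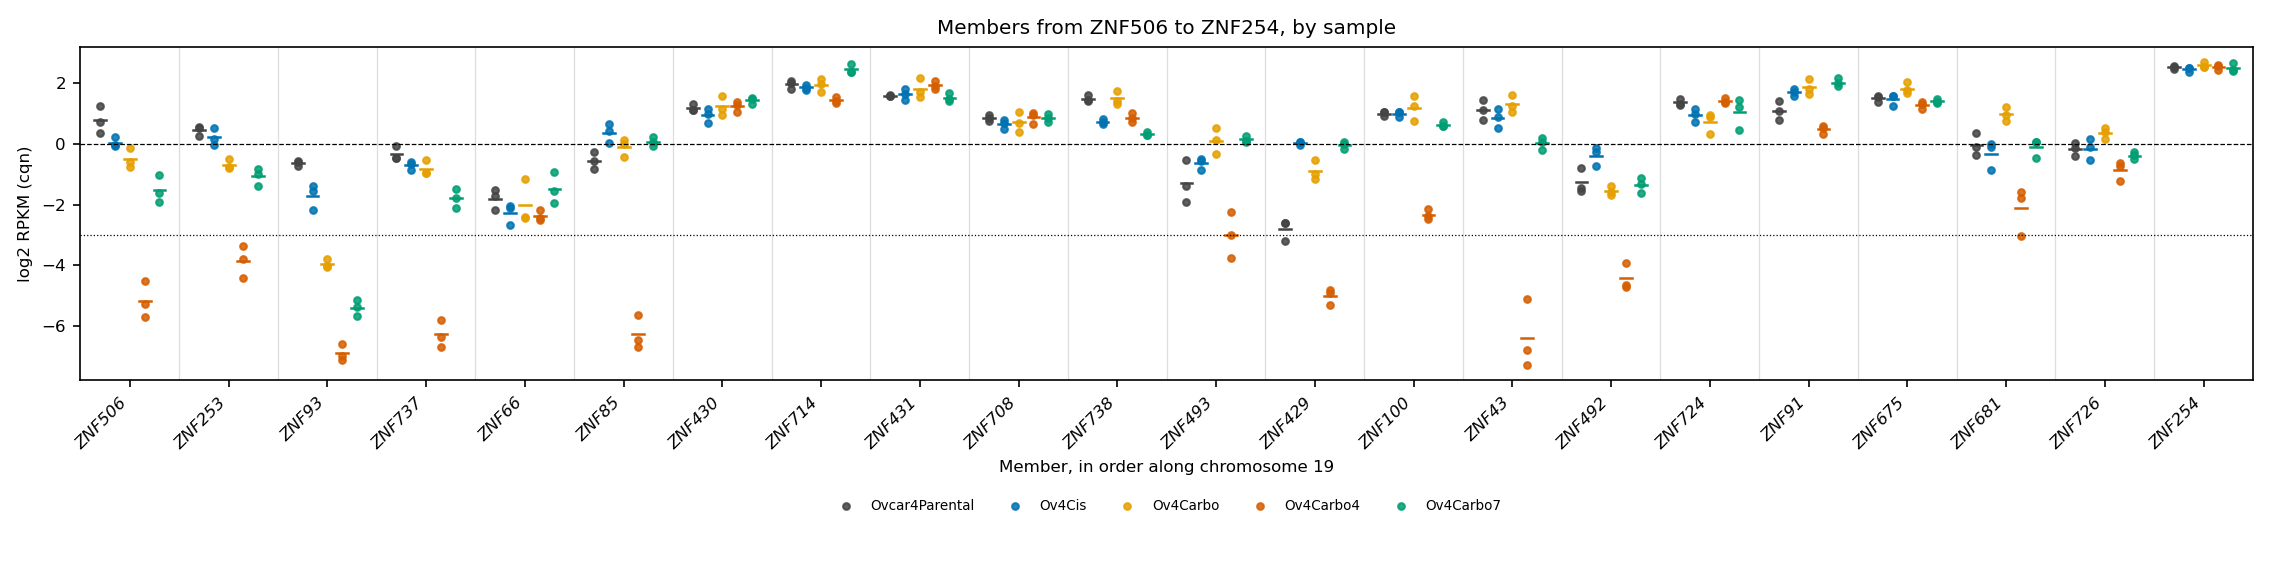
Log2 RPKM of each sample for members from ZNF506 to ZNF254, in order along the short arm, with 3 points and a mean bar per line. Dashed and dotted lines mark log2 RPKM 0 and -3. For ZNF43 the 3 Ov4Carbo4 points lie between -7.30 and -5.11 and all other points at -0.21 or above, while ZNF254 lies between 2.39 and 2.70 in all 15 samples.

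ZNF91 and ZNF93 of this arm are known repressors of retroelements of the SVA and L1 families. ZNF91 was on in every line. It was lowest in Ov4Carbo4, at 0.54, 0.33 and 0.59, and read 1.83, 2.14 and 1.65 in Ov4Carbo, a change of -1.39 (SE 0.16, adjusted p = 5.09e-05, limma), or -0.96 as log2(RPKM + 1). ZNF93 was low from the start and fell in every derived line. It read -0.57, -0.58 and -0.74 in the parental samples, -2.18, -1.39 and -1.56 in Ov4Cis, -3.78, -4.03 and -4.06 in Ov4Carbo, -5.67, -5.38 and -5.14 in Ov4Carbo7 and -6.60, -7.13 and -7.00 in Ov4Carbo4. No 2 lines overlapped, and the changes against the parental line were -1.08, -3.33, -4.77 and -6.28 (SE 0.21 each, adjusted p = 0.00118, 4.21e-07, 1.4e-08 and 1.78e-09, limma). With its parental level already below 1 RPKM, the same changes were -0.33, -0.63, -0.69 and -0.71 as log2(RPKM + 1). The call in Ov4Cis ended without its replicate 1 (-0.85).

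A second short-arm cluster, ZNF653 to ZNF443, had 7 of 14 members lower in Ov4Carbo4 than in the parental line and 4 lower in Ov4Carbo7 (2 and 1 on the scale of log2(RPKM + 1)). The count in Ov4Carbo7 was 2 with the series term. The 2 clones were low together in ZNF844 and ZNF433. ZNF844 read 0.95, 0.77 and 0.68 in the parental samples, -0.13, 0.08 and -0.02 in Ov4Cis and -2.66, -1.77 and -2.59 in Ov4Carbo. In Ov4Carbo4 it read -6.05, -5.67 and -6.23, and in Ov4Carbo7 -4.50, -5.84 and -6.78. The source population thus lay between the parent and its clones, which overlapped each other. ZNF844 changed by -3.14 in Ov4Carbo, -6.79 in Ov4Carbo4 and -6.51 in Ov4Carbo7 against the parental line (SE 0.43 each, adjusted p = 0.000171, 2.51e-07 and 3.46e-07, limma), or by -1.19, -1.43 and -1.42 as log2(RPKM + 1).

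ZNF44, a few genes away, separated the clones. Its Ov4Carbo4 samples read -2.0, -2.61 and -2.75, and its Ov4Carbo7 samples 1.62, 1.37 and 1.38, above the 1.06, 0.74 and 0.57 of the parental line. The difference between the clones was 3.91 (SE 0.21, adjusted p = 4.6e-08, limma). ZNF69 was off in Ov4Carbo4 alone, at -6.61 ± 0.21, with -2.33 ± 0.25 in Ov4Carbo7 and -1.09 ± 0.33 in the parental line (SD, n = 3). ZNF799 and ZNF443, next to ZNF44, were lower in Ov4Carbo4 than in the parental line (-1.21 and -1.16, adjusted p = 0.00364 and 0.00511, limma). Both calls ended without Ovcar4Parental replicate 1 (-0.98 each), that of ZNF443 also without Ov4Carbo4 replicate 2 (-0.92), and that of ZNF799 with the series term (-1.17).

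ZNF439 of the same cluster was the other member called lower in all 4 derived lines. It read -0.20, -0.83 and -0.25 in the parental samples and -4.19, -4.37 and -3.70 in Ov4Cis. In Ov4Carbo4 it read -4.58, -4.50 and -3.99, and in Ov4Carbo7 -3.03, -2.93 and -3.43. Its Ov4Carbo samples, at -3.51, -0.75 and -1.44, overlapped the parental ones. That last call (-1.47, adjusted p = 0.046, limma) was close to the threshold, and without Ov4Carbo replicate 1 the change was -0.67 and not called. With the series term the calls in Ov4Carbo (-0.67) and Ov4Carbo7 (-0.29) ended. ZNF440 next to it was among the most even members, with line means from 1.70 to 1.84.

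Outside these clusters on the short arm, ZNF426 was the member with the deepest fall in Ov4Carbo7 against the parental line after ZNF844 (-4.80 and -6.51). It read 1.49, 1.23 and 1.02 in the parental samples, 1.73, 1.86 and 1.79 in Ov4Cis, -0.10, 0.53 and 0.52 in Ov4Carbo, -3.28, -2.73 and -2.66 in Ov4Carbo4 and -4.35, -3.20 and -3.12 in Ov4Carbo7. Both clones lay below all 9 other samples. The changes against Ov4Carbo were -3.21 in Ov4Carbo4 and -3.87 in Ov4Carbo7 (SE 0.30 each, adjusted p = 8.09e-06 and 4.94e-06, limma), and -0.99 and -1.05 as log2(RPKM + 1). Its cluster neighbour ZNF317 was even, with line means from 3.89 to 4.08.

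Of the 29 members lower in Ov4Carbo7 than in Ov4Carbo, 21 lay on the long arm, and most of those in the cluster ZNF565 to ZNF573. Of its 24 members, 16 were called lower in Ov4Carbo7 than in Ov4Carbo, with a median change of -1.16 over all 24, and 11 lower than in Ov4Carbo4. Against the parental line 6 were lower. With that series term the falls against Ov4Carbo were 8 and those against the parental line 2, while the comparison between the clones was not touched. On the scale of log2(RPKM + 1) 3 of the 24 were lower than in Ov4Carbo and 2 lower than in Ov4Carbo4. Most of these changes were moderate, and 4 members were off. ZNF850 changed most: it read -1.54, -1.65 and -1.93 in the parental samples, -1.67, -0.44 and -1.23 in Ov4Carbo, -1.32, -1.43 and -0.68 in Ov4Carbo4, and -4.65, -6.17 and -5.67 in Ov4Carbo7. Its change in Ov4Carbo7 was -4.38 against Ov4Carbo (SE 0.38, adjusted p = 9.99e-06, limma), but -0.53 as log2(RPKM + 1), since it was below 1 RPKM in all samples.

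Members of this cluster with higher levels moved the same way by less. ZNF260 read 3.31, 3.61 and 3.90 in Ov4Carbo, 3.94, 3.95 and 4.07 in Ov4Carbo4, and 2.50, 2.69 and 2.54 in Ov4Carbo7. That was -1.41 against Ov4Carbo4 (SE 0.13, adjusted p = 2.93e-06, limma), or -1.28 as log2(RPKM + 1). ZNF829 read 0.64, 1.12 and 1.23 in Ov4Carbo, 1.30, 1.19 and 1.11 in Ov4Carbo4, and -1.23, -0.37 and -0.99 in Ov4Carbo7, -2.06 against Ov4Carbo4 (SE 0.22, adjusted p = 1.04e-05, limma). In both genes the Ov4Carbo7 samples lay below those of the other 4 lines.

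ZNF568, whose mouse counterpart is known as a repressor of the placental transcript of Igf2, read -0.85, -1.03 and -0.81 in Ov4Carbo7. In Ov4Carbo4 it read 0.58, 0.58 and 0.73, so that the clones differed by -1.53 (SE 0.27, adjusted p = 0.000532, limma). ZNF420, known as APAK, a KRAB protein that restrains p53, was on in all lines: its means were 0.49 ± 0.15 in the parental line, 1.62 ± 0.06 in Ov4Cis, 1.54 ± 0.13 in Ov4Carbo4 and 0.24 ± 0.03 in Ov4Carbo7 (SD, n = 3). It was called higher in Ov4Cis (1.12) and Ov4Carbo4 (1.04) than in the parental line, and lower in Ov4Carbo7 than in Ov4Carbo4 (-1.30). The Ov4Carbo4 call ended without Ovcar4Parental replicate 2 (0.96) or Ov4Carbo4 replicate 3 (0.98). ZNF146 near the start of the cluster, a protein made almost only of zinc fingers, had the highest mean level of all members over the 15 samples, with line means from 5.16 to 5.84, and was not called.

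ZNF382, described as a tumour suppressor silenced by methylation in carcinomas, was higher in Ov4Cis and Ov4Carbo than in the clones. It read -0.24, -0.33 and -0.59 in the parental samples, 1.94, 1.42 and 1.62 in Ov4Cis and 1.08, 2.17 and 1.99 in Ov4Carbo. In the clones it read -0.60, -0.39 and -0.46 (Ov4Carbo4) and 0.13, 0.40 and -0.14 (Ov4Carbo7), below every sample of Ov4Cis and Ov4Carbo. It was called higher in Ov4Cis (2.05) and Ov4Carbo (2.13) than in the parent, and the change from Ov4Carbo was -2.23 in Ov4Carbo4 and -1.61 in Ov4Carbo7 (SE 0.25 each, adjusted p = 3.38e-05 and 0.000381, limma). ZNF569, ZNF570 and ZNF529 of the cluster were likewise called lower in both clones than in Ov4Carbo. With the series term the Ov4Carbo7 calls of ZNF382 (-0.94), ZNF569 (-0.98) and ZNF570 (-0.57) ended, as did the Ov4Carbo4 calls of ZNF569 (-0.55), ZNF570 (-0.70) and ZNF529 (-0.86). Without Ov4Carbo replicate 2 the Ov4Carbo4 calls of ZNF569 (-0.94) and ZNF529 (-0.87) and the Ov4Carbo7 call of ZNF570 (-0.90) ended, and without its replicate 3 those of ZNF569 (-0.94) and ZNF570 (-0.96).

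ZNF793, near the far end of the cluster, was the 1 member of the 24 called higher in Ov4Carbo7 than in Ov4Carbo4. It read 1.80, 1.69 and 1.71 in the parental samples, 1.41, 1.49 and 1.58 in Ov4Cis and 1.44, 1.98 and 1.61 in Ov4Carbo, then -5.24, -3.26 and -3.64 in Ov4Carbo4 and -0.31, -0.48 and -0.64 in Ov4Carbo7. The clones overlapped neither each other nor the other lines. Against the parental line the changes were -5.78 in Ov4Carbo4 and -2.21 in Ov4Carbo7 (SE 0.37 each, adjusted p = 2.66e-07 and 0.000427, limma), or -2.02 and -1.33 as log2(RPKM + 1). On that scale the fall in Ov4Carbo4 was the largest of all 206 members in the 7 comparisons. With the series term the call in Ov4Carbo7 ended (-1.85).

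**Figure D4:**
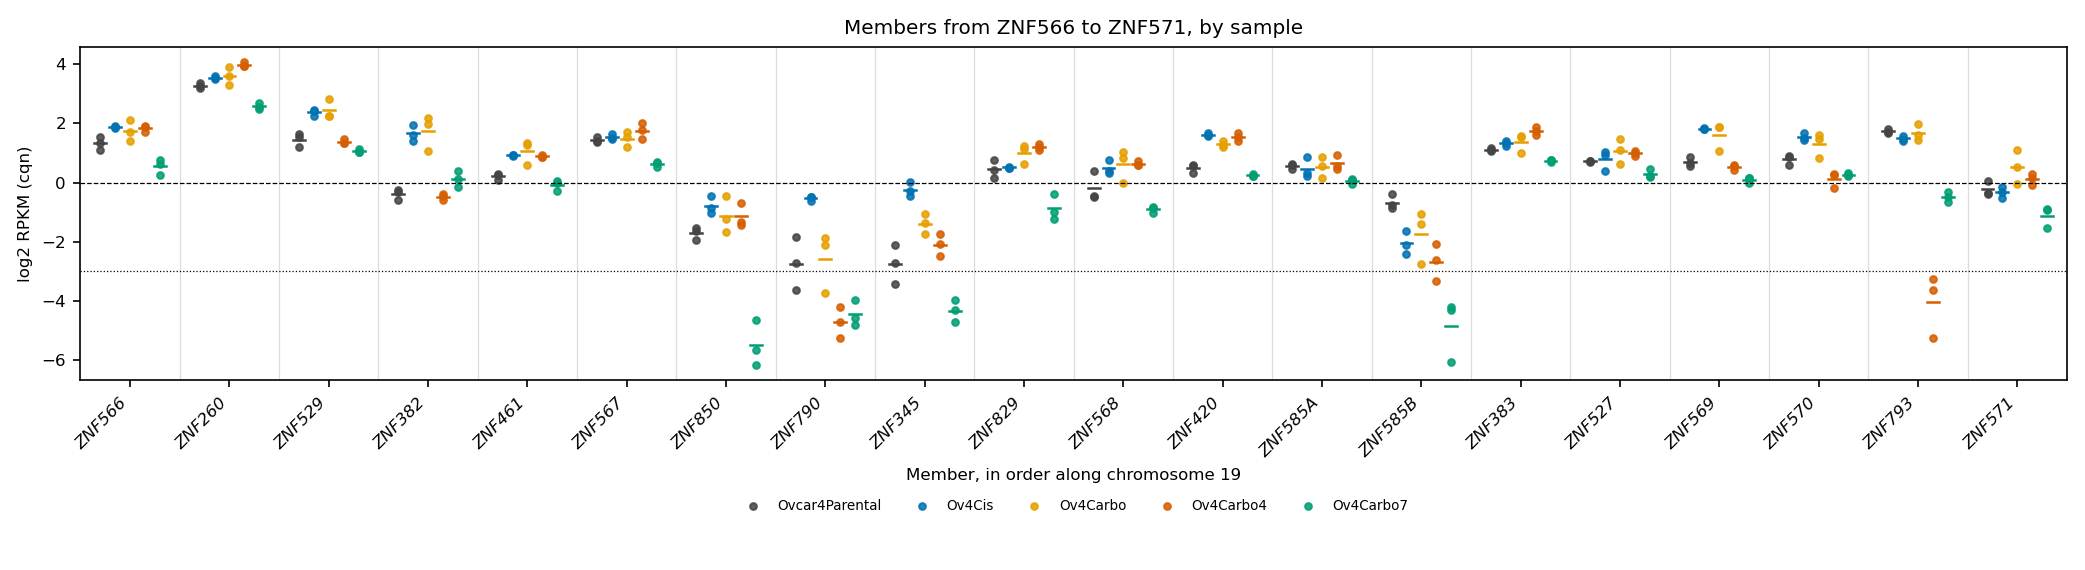
Log2 RPKM of each sample for members from ZNF566 to ZNF571, in order along the long arm, with 3 points and a mean bar per line. Dashed and dotted lines mark log2 RPKM 0 and -3. The Ov4Carbo7 points are the lowest group for ZNF850, ZNF345, ZNF829 and ZNF568, and the Ov4Carbo4 points for ZNF793, at -5.24 to -3.26.

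Other long-arm members were low in 1 clone only. ZNF528 in the cluster ZNF577 to ZNF665 read -3.03, -2.90 and -2.26 in Ov4Carbo4 and 0.03, -0.16 and 0.16 in Ov4Carbo7, a difference of 2.74 (SE 0.20, adjusted p = 6.04e-07, limma). ZNF347 of the same cluster read 0.27, -0.06 and 0.36 in Ov4Carbo4, and from 1.59 to 2.30 in the 12 other samples. Its change against Ov4Carbo was -1.85 (SE 0.13, adjusted p = 1.28e-06, limma), or -1.25 as log2(RPKM + 1). ZNF415 and ZNF665, on both sides of it, were off in both clones, but their Ov4Carbo samples were scattered. Replicate 1, the Ov4Carbo sample in the number series of the clones, was lowest for both, at -4.19 and -5.45. The others read -1.56 and -1.36 for ZNF415, and -3.55 and -2.38 for ZNF665. For ZNF415 parental replicate 2 read -4.44, within the Ov4Carbo7 range of -4.74 to -4.06. ZNF582, a gene known for promoter methylation in cervical cancer, was off in Ov4Carbo7 (-3.41 ± 0.35) and below 1 RPKM in all lines, with a change of -2.92 from Ov4Carbo (SE 0.21, adjusted p = 3.48e-06, limma).

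The likeness of members across the 15 samples was described by Pearson's r, for the 3 members with the largest range among those that were on in 1 line and off in another. For ZNF43 the members most like it were ZNF100 (r = 0.991), 1 place away, and ZNF347 (r = 0.980), 95 places away on the other arm. For ZNF844 they were ZNF93 (r = 0.953) and ZNF433 (r = 0.949), and for ZNF85 ZNF44 (r = 0.980) and ZNF100 (r = 0.972). The 15 points fall in 5 lines of 3 and share their libraries, and the 3 Ov4Carbo4 samples are far from the rest for ZNF43 and ZNF85. No test was attached to these values.

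The 2 clones were also compared with each other, with 27 members (13.1%) higher and 17 (8.25%) lower in Ov4Carbo7 than in Ov4Carbo4, where 11.1% and 9.86% of all genes were. By arm, 16 of the 27 higher members and 0 of the 17 lower ones lay on the short arm. The largest differences were ZNF43 (6.42, SE 0.43, adjusted p = 3.01e-07, limma) and ZNF85 (6.33, SE 0.26, adjusted p = 8.38e-09, limma). At the other extreme was ZNF850 (-4.36, SE 0.38, adjusted p = 2e-06, limma).

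Ov4Cis had 21 members (10.2%) called above the parental line and 3 (1.46%) below it, where 8.46% and 7.41% of all genes were so called, and 20 of the 21 lay on the long arm. Of these, 9 belonged to the cluster ZNF283 to ZNF180, whose 18 members had a median change of 1.00. On the scale of log2(RPKM + 1) none of the 9 reached a change of 1 (0 calls). All 9 lay in the stretch from ZNF45 to ZNF233, and most rose by about the same modest amount. ZNF234 read 1.49, 1.46 and 1.28 in the parental samples and 2.62, 2.55 and 2.75 in Ov4Cis, a change of 1.23 (SE 0.10, adjusted p = 1.57e-06, limma), or 0.98 as log2(RPKM + 1).

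ZNF235 read -0.08, -0.40 and 0.08 in the parental samples and 0.98, 0.98 and 1.02 in Ov4Cis (1.13, SE 0.14, adjusted p = 4.3e-05, limma). ZNF227 rose by 1.04, ZNF222 by 1.06, ZNF45 by 1.02, ZNF155 by 1.16, ZNF284 by 1.30 and ZNF223 by 1.83. The 2 runs of 3 neighbours called higher here were ZNF222, ZNF223 and ZNF284, and ZNF227, ZNF235 and ZNF233. The members between the called ones did not reach the limit of 1: ZNF226 had 0.98, ZNF225 0.94, ZNF224 0.67 and ZNF230 0.50. With so many changes close to 1, several calls ended when 1 sample was left out, with changes of 0.97 for ZNF222 without Ovcar4Parental replicate 3, 0.88 for ZNF227 without Ovcar4Parental replicate 1 and 0.99 for ZNF235 without Ovcar4Parental replicate 2.

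ZNF233 rose most in Ov4Cis. It read -4.22, -4.29 and -2.15 in the parental samples, 0.33, 0.11 and 0.16 in Ov4Cis, -2.10, -1.73 and -1.75 in Ov4Carbo, -1.53, -1.66 and -1.78 in Ov4Carbo4 and -1.18, -1.37 and -1.43 in Ov4Carbo7. All 12 derived samples lay above the 3 parental ones, of which the third was apart from the others. The change was 3.76 for Ov4Cis, 1.69 for Ov4Carbo, 1.90 for Ov4Carbo4 and 2.23 for Ov4Carbo7 (SE 0.42 each, adjusted p = 1.83e-05, 0.00842, 0.00326 and 0.00101, limma), or 0.96, 0.21, 0.25 and 0.34 as log2(RPKM + 1). The call in Ov4Carbo4 ended with the series term (2.25).

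**Figure D5:**
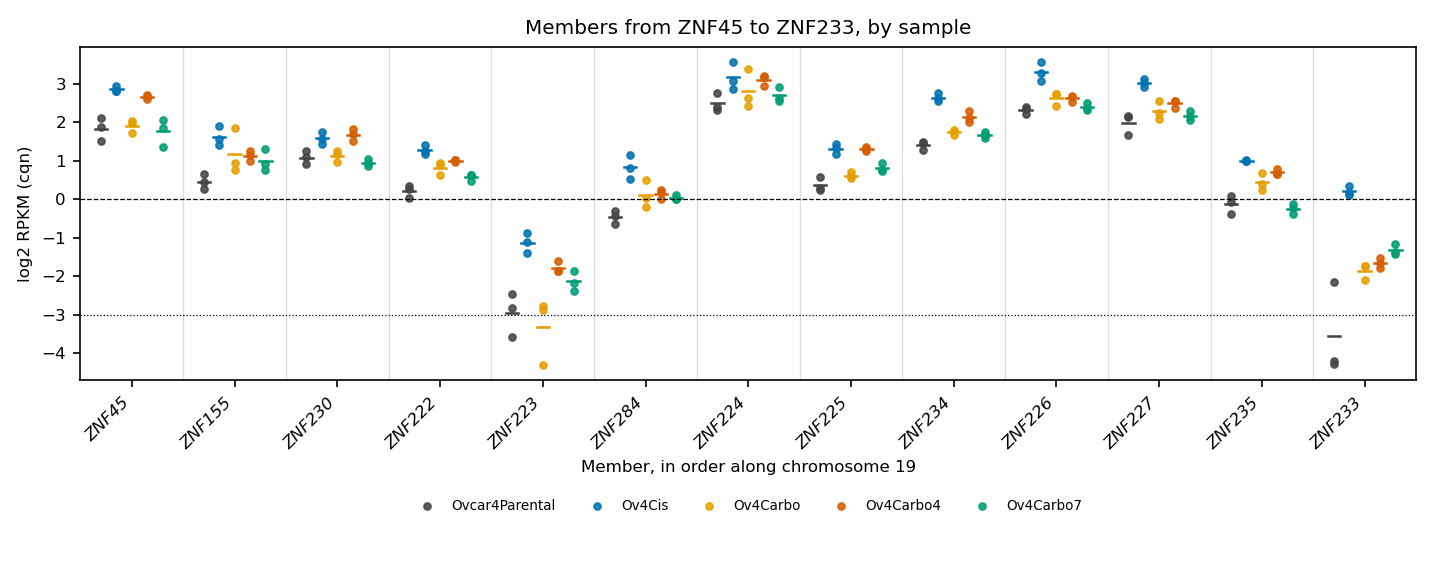
Log2 RPKM of each sample for members from ZNF45 to ZNF233, in order along the long arm, with 3 points and a mean bar per line. Dashed and dotted lines mark log2 RPKM 0 and -3. For ZNF234 and ZNF235 the 3 Ov4Cis points are the highest, and for ZNF233 they lie between 0.11 and 0.33, above all other samples.

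ZNF547 was the other member called higher in all 4 derived lines. It read -3.74, -1.88 and -2.10 in the parental samples, -1.0, -0.45 and -0.42 in Ov4Cis, -0.26, -0.13 and -1.04 in Ov4Carbo, -0.44, -1.02 and -0.01 in Ov4Carbo4 and -0.41, -0.37 and -0.16 in Ov4Carbo7. The derived lines overlapped one another and lay above the parent, of which replicate 1 was the lowest. The changes ran from 1.95 (adjusted p = 0.00323, limma) in Ov4Cis to 2.26 (adjusted p = 0.00109, limma) in Ov4Carbo7, and from 0.48 to 0.60 as log2(RPKM + 1). The calls in Ov4Carbo4 (1.76) and Ov4Carbo7 (1.94) ended with the series term.

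Among members with rises elsewhere, ZNF610 read -2.08, -2.19 and -1.77 in the parental samples and 0.76, 1.22 and 1.16 in Ov4Cis, a change of 3.06 (SE 0.18, adjusted p = 9.36e-08, limma). Its means in Ov4Carbo and Ov4Carbo7 were -0.47 ± 0.27 and -0.22 ± 0.28, both above the -2.01 ± 0.22 of the parent, and that in Ov4Carbo4 was -1.64 ± 0.06 (SD, n = 3). ZNF320 was likewise highest in Ov4Cis, at 2.02, 2.02 and 2.16, and lowest in Ov4Carbo4, at -1.09, -1.30 and -1.07. The members lower in Ov4Cis than in the parent were 3: ZNF439 and ZNF93, described above, and ZNF525, which went from 3.17 ± 0.18 to 1.91 ± 0.09 (SD, n = 3; change -1.26, SE 0.16, adjusted p = 4.15e-05, limma).

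The Ov4Carbo population had the fewest calls against the parental line, with 11 members (5.34%) higher and 9 (4.37%) lower, where 5.76% and 6.93% of all genes were. Its largest rise was ZNF382 and its largest falls were ZNF93 and ZNF844, all given above. ZNF471, known as a methylated gene in gastric and other carcinomas, rose from -1.18 ± 0.37 to 0.26 ± 0.61 (SD, n = 3; change 1.44, SE 0.29, adjusted p = 0.00239, limma). With its neighbours ZNF667 and ZNF470 it was lower in Ov4Carbo4 than in Ov4Carbo and higher in Ov4Carbo7 than in Ov4Carbo4. ZNF134 ran against its source in both clones. It read -0.15, -0.23 and -0.41 in the parental samples and -2.21, -2.34 and -1.46 in Ov4Carbo, but 1.96, 1.67 and 1.74 in Ov4Carbo4 and 0.59, 0.58 and 0.97 in Ov4Carbo7.

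No 2 of those 4 lines overlapped for ZNF134, and the rise over Ov4Carbo was 3.79 in Ov4Carbo4 and 2.71 in Ov4Carbo7 (SE 0.20 each, adjusted p = 8.37e-08 and 3.75e-06, limma). ZNF83 was a member of higher level that moved: it read 3.23, 2.84 and 2.72 in the parental samples and 4.92, 4.30 and 4.41 in Ov4Carbo7 (1.62, SE 0.23, adjusted p = 0.000145, limma). ZNF114 rose from 1.69, 1.94 and 1.32 in the parental samples to 3.95, 3.52 and 3.95 in Ov4Carbo7 (2.16, SE 0.25, adjusted p = 2.28e-05, limma). ZNF792 rose in Ov4Carbo4 (1.58) and in Ov4Carbo7 (1.27) over the parent, and ZNF805 in Ov4Carbo4 over Ov4Carbo (1.11, and 0.94 without Ov4Carbo replicate 2, where the call ended).

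Several members with a known role were not called in any comparison. ZNF274, which binds the 3′ ends of other zinc finger genes and recruits SETDB1 there, had line means from 3.03 to 3.71. ZNF331, an imprinted gene known for methylation in gastrointestinal cancers, had means of 4.09 ± 0.37 in the parental line and 3.10 ± 0.10 in Ov4Cis (SD, n = 3), just short of the limit of 1. ZNF579 and ZNF787, with ZNF146 the members of the highest level, had line means from 4.70 to 5.51 and from 4.96 to 5.85. ZNF132, ZNF154, ZNF177 and ZNF671, known methylation targets in tumours, had no row.

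Next neighbours called in the same comparison were counted over the members and over the other genes of the chromosome. In Ov4Carbo4 against the parental line, 15 of the 205 pairs of neighbouring members were called in the same direction (7.32%) and 0 in opposite ones, beside 9 of 768 pairs (1.17%) and 5 among the other protein-coding genes of chromosome 19. Against Ov4Carbo the counts were 19 (9.27%) and 0, beside 8 (1.04%) and 2. For Ov4Carbo7 against Ov4Carbo they were 13 (6.34%) and 0, beside 16 (2.08%) and 6. Ov4Carbo7 against the parental line had 9 pairs in the same direction (4.39%) and 2 in opposite ones, beside 27 (3.52%) and 7. Between the clones there were 17 (8.29%) and 1, beside 47 (6.12%) and 10. The shares in the same direction were 2.93% beside 2.86% in Ov4Cis and 1.95% beside 1.56% in Ov4Carbo, against the parental line. Such shares also rise with the number of genes called. In Ov4Carbo4 against Ov4Carbo, 2.91% of members were called higher and 18.9% lower, beside 6.63% and 3.12% of the other genes. Against the parental line these were 3.88% and 14.6%, beside 6.5% and 5.85%. The pair counts were not adjusted for this and not tested, and reads shared between near-identical neighbours were not tested. Counts of clustered relatives, and of genes that overlap on opposite strands, are uncertain to that extent, since the sources used here do not give the strand setting.

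The partner genes of KRAB repression changed mostly by less than the limit of 1. Of 27 listed, from the corepressors TRIM28, TRIM24 and TRIM33 to histone and DNA methyltransferases and the HUSH complex, 26 had a row. In Ov4Cis, Ov4Carbo and Ov4Carbo7 against the parental line, and in both clones against Ov4Carbo, limma called 0. Without the limit on size, 5, 4, 10, 14 and 9 of the 26 passed an adjusted p of 0.05 in these 5 comparisons. Of all 16604 genes, 6012, 5638, 7071, 7015 and 6083 did so. An unadjusted p of 0.05 was passed by 7, 7, 10, 15 and 10 of the 26, and the share of all genes passing it is not given here. In Ov4Carbo4 against the parental line 13 passed the adjusted limit, and between the clones 18, beside 6589 and 8484 of all genes. Among changes smaller than 1 was -0.89 for TRIM28 in Ov4Carbo7 against the parental line (SE 0.14, adjusted p = 0.000223, limma). EHMT1, a methyltransferase of histone H3, was higher in Ov4Carbo4 than in the parental line, from 3.91 ± 0.16 to 4.99 ± 0.02 (SD, n = 3; 1.08, SE 0.10, adjusted p = 3.7e-06, limma).

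Between the clones, EHMT1 (-1.23) and TRIM24 (-1.66) were lower in Ov4Carbo7. TRIM28 had means of 8.36 ± 0.20 in the parental line, 8.41 ± 0.09 in Ov4Carbo4 and 7.47 ± 0.17 in Ov4Carbo7, and SETDB1 of 4.57 ± 0.17, 4.63 ± 0.12 and 4.50 ± 0.12 (SD, n = 3). The DNA methyltransferase DNMT1 ranged from 6.34 to 6.59 over the line means. The median change over the 26 was 0.26 in Ov4Carbo4 and -0.17 in Ov4Carbo7 against the parental line, where the median over all genes was 0.07 and 0.02. Whether these genes had a part in the levels of the members was not tested.

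Some facts of the whole table touch all of these values. The sample median was 2.77 in every sample, the depth of each library is unknown, and precision is read from how far replicates lie apart. Replicates of Ov4Carbo were the least alike, with root mean square differences over the members of 0.67, 0.65 and 0.43, against 0.21 to 0.43 in the other lines. No label names the number series of the titles as a batch, and apart from Ov4Carbo the series and the lines cannot be told apart. The difference between the clones lies within one series and that between Ov4Cis and the parent within the other.

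The lineage marker PAX8 was at 5.85 to 6.74 in all 5 lines, the epithelial keratins KRT8 and KRT18 at 4.50 to 7.53, and WT1, common in this tumour type, only at -5.07 to -1.52. The markers did not all move 1 way. At its low level WT1 was called higher than in the parent in Ov4Cis (3.56), Ov4Carbo (2.38) and Ov4Carbo4 (2.81). PAX8 was not called in any comparison. KRT8 was called lower than in the parent in Ov4Cis (-2.58) and Ov4Carbo7 (-1.21). KRT18 was called lower in Ov4Cis (-1.20), Ov4Carbo4 (-1.07) and Ov4Carbo7 (-1.10). Other epithelial and tumour markers were also called lower than in the parent in several lines. KRT7 changed by -8.85 in Ov4Cis and by -2.21, -2.64 and -2.80 in the carboplatin lines. EPCAM changed by -4.81 and MUC16 by -6.32 in Ov4Cis, and by -2.97 and -4.81 in Ov4Carbo7. MSLN was lower in Ov4Cis (-4.18) and Ov4Carbo4 (-1.47). Of the markers of other cell types, PTPRC, PECAM1 and DCN had no row, and VWF, COL1A1 and COL1A2 had line means of -1.65 to -0.18, 2.26 to 3.63 and -4.41 to 1.39. COL1A2 was called lower in all 4 derived lines and COL1A1 higher in Ov4Carbo4 (1.21) than in the parent. The part of these markers in the results was not tested.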

How the data were processed

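RNA of 15 samples, 5 lines with 3 replicates each, was prepared with a column kit and made into libraries by polyA capture, per the labels' protocols. The deposited table holds log2 RPKM values that the authors corrected for GC content and gene length by conditional quantile normalization; base 2 was checked from the totals. BWA 0.7.15-r1140, HTSeq and hg19/GRCh37 are named in the submitters' processing notes. The filter on low genes, the annotation and the strand setting are not given in the sources used here. Read totals were not used here, so depth is unknown.

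Values were fitted as deposited with limma 3.58.1 in R 4.3.3 (1 coefficient per line, all 16604 genes, empirical Bayes, Benjamini-Hochberg adjustment over all genes), tested on simulated data. Each call needs an adjusted p under 0.05 and a log2 change of at least 1. Summaries used Python 3.11.15 and pandas 2.3.3. Gene order came from GENCODE v29, in which 16499 genes matched, and promoters from RefSeq GRCh38.p14 by symbol. The rule for naming members took those on in 1 line and off in another, the 2 largest called rises and falls per comparison (groups not overlapping, higher line mean at least 0), those called 1 way in all 4 derived lines, the 3 highest and 3 most even, those with a known role, the 2 most like each of 3 switched members, and runs of at least 3 neighbours. Other members named were picked after their values were seen. The members, lists and rules were chosen with earlier results of these data known. Replicate numbers did not pair the samples: 11 of 30 same-numbered pairs deviated together (r over 0.1). Alternatives were other normalizations, filters, pseudocounts, state limits, left-out samples, a replicate block and a term for the number series of the sample titles.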

Additional observations from a re-analysis of the deposited data

Results flagged for a closer look

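Some members moved in opposite directions from the parental line in 2 lines, with a tested difference between the lines. ZNF429 changed by -2.21 in Ov4Carbo4 and 2.77 in Ov4Carbo7, a difference of 4.98 (SE 0.20, adjusted p = 5.69e-09, limma), and by 1.91 in Ov4Carbo, a difference of -4.12 between Ov4Carbo4 and Ov4Carbo (adjusted p = 3.76e-08, limma). ZNF493 changed by -1.71 in Ov4Carbo4 and 1.43 in Ov4Carbo7, a difference of 3.14 (SE 0.39, adjusted p = 2.95e-05, limma), and by 1.39 in Ov4Carbo, a difference of -3.10 (adjusted p = 7e-05, limma). Its parental samples lay apart (-0.52, -1.4 and -1.92), and its Ov4Carbo4 call against the parental line ended with the series term, as given above. ZNF681 changed by 1.02 in Ov4Carbo and -2.09 in Ov4Carbo4, a difference of -3.11 (SE 0.36, adjusted p = 4.08e-05, limma). ZNF345 changed by 1.37 in Ov4Carbo and -1.56 in Ov4Carbo7, a difference of -2.93 (SE 0.32, adjusted p = 4.02e-05, limma). ZNF134 changed by -1.74 in Ov4Carbo and 2.06 in Ov4Carbo4, a difference of 3.79 (SE 0.20, adjusted p = 8.37e-08, limma).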

How the results depend on the processing

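Counts of members called are given in the order Ov4Cis, Ov4Carbo, Ov4Carbo4 and Ov4Carbo7 against the parental line, Ov4Carbo4 and Ov4Carbo7 against Ov4Carbo, and Ov4Carbo7 against Ov4Carbo4, where the reported counts were 24, 20, 38, 31, 45, 34 and 44. Shares of all genes called under the settings below are not given here. A filter on a mean log2 RPKM of 1, which leaves 119 members, gave 7, 1, 5, 3, 8, 6 and 14. By the F-test it gave 98 of these 119, and without the filter 169 of 206 differed. On the scale of log2(RPKM + 1) the counts were 5, 3, 11, 6, 12, 6 and 11, with 2 higher and 9 lower in Ov4Carbo4 and 8 higher and 3 lower between the clones. A fit of only the groups compared gave 13 for Ov4Carbo against the parental line. With the series term the higher and lower members were 22 and 4, 19 and 7, 22 and 22, 17 and 15, 10 and 29, 7 and 16, and 28 and 18. ZNF790 in Ov4Carbo7 against the parental line went from -1.71 to 0.02 with that term, and the cause was not tested. With a replicate block the counts were 24, 18, 38, 31, 45, 33 and 43, and 168 by the F-test; the block ended the calls of ZNF43 in Ov4Carbo7 against Ov4Carbo (-1.29) and of ZNF439 in Ov4Carbo against the parental line (-1.47). With 1 sample left out the counts ran from 22 to 28, 18 to 26, 36 to 39, 30 to 35, 41 to 47, 29 to 40 and 40 to 46, and from 156 to 178 by the F-test. Members on in 1 line and off in another were 4 with limits of 1 and -2, 4 with limits of 0 and -4, and 7 to 8 with 1 sample left out. Of 168 named gene calls, 138 stayed past the threshold with the series term and 46 on the scale of log2(RPKM + 1). Under quantile normalization 166 stayed, but this setting tests little. The deposited values had already been through conditional quantile normalization, and the sample median was 2.77 in every sample. Above that median, values of equal rank differed between samples by an SD of at most 5.18e-04. Unknown depth limits what can be said of members below 1 RPKM.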

Other observations

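Zinc finger genes with other kinds of name lie inside the same clusters. ZFP14, in the long-arm cluster ZNF565 to ZNF573, was higher in Ov4Carbo4 (1.09) and lower in Ov4Carbo7 (-1.16) than in the parental line, and differed by -2.25 between the clones. ZFP82 of that cluster was lower in both clones than in the parental line (-1.01 and -1.05), and HKR1 and ZFP30 were not called. ZFP28 was lower in Ov4Carbo4 than in Ov4Carbo (-1.32) and higher in Ov4Carbo7 than in Ov4Carbo4 (1.02). ZSCAN18, a gene known for promoter methylation in tumours, had line means of 1.23 for the parental line, 3.55 for Ov4Cis, 3.15 for Ov4Carbo, 0.18 for Ov4Carbo4 and 2.70 for Ov4Carbo7. These genes were looked up after the calls of the members were known.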
